A study of Mus musculus with 4 samples.

Results

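The polypeptide N-acetylgalactosaminyltransferases, encoded by the Galnt genes, were examined in RNA sequencing of the gastric corpus mucosa of mice. The 10 genes were taken by name, namely Galnt1 to Galnt7, Galnt10, Galnt11 and Galnt12, and all were found among the 34866 genes of the deposited count table. The 2 genotypes were Muc6 +/+, called wild type, and Muc6 -/-, called knockout, with 2 libraries each. The labels give no age, sex or strain, and do not say whether each library is a separate animal, so p-values measure the spread between these libraries, which may be technical. The design asked how loss of Muc6, the gel-forming mucin that gastric glands secrete, relates to gastric carcinogenesis.

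Each of these enzymes moves N-acetylgalactosamine (GalNAc) from the sugar nucleotide UDP-GalNAc onto a serine or threonine of a protein in the Golgi, the first step of mucin-type O-glycosylation. Mucins, the main O-glycosylated proteins of the gastric surface and glands, carry long stretches of such residues. The isoenzymes share the reaction and differ in the acceptors they prefer. Galnt1, Galnt2, Galnt3, Galnt5, Galnt6 and Galnt11 act on bare peptide, whereas the branch that holds Galnt4, Galnt7, Galnt10 and Galnt12 includes follow-up enzymes, above all Galnt7 and Galnt10, that prefer acceptors already carrying GalNAc.

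Total counts were between 20327623 and 27946313 per library, and the targeted Muc6 gene, with 8542 and 6000 counts for wild type 1 and 2, was left with 0 and 10 counts for knockout 1 and 2. Levels are given as counts scaled by library size (CPM). The libraries also differed in ways that touch every comparison below. The 4 Y-linked genes measured added up to 136 and 121 CPM (wild type) against 1.43 and 2.44 CPM (knockout), so genotype and Y-linked expression cannot be told apart. Such a difference is that of male against female tissue, and the labels give no sex. Genotype and sex thus cannot be told apart in any comparison below, those of the members included. Corpus markers were present in all libraries, but the parietal proton pump gene Atp4a fell from 10503 and 10456 CPM in the wild-type libraries to 353 and 3331 CPM in those of the knockout by DESeq2 (adjusted p = 0.0398, edgeR 0.387). Of 2 defining antral genes, Gast had 1, 0, 218 and 0 counts and Pdx1 had 7, 1, 1316 and 61 counts for wild type 1 and 2 and knockout 1 and 2, so knockout 1 stood apart. Knockout 2 had more Pdx1 than the wild-type libraries as well. Nkx6-3, also of the antral list, was at 0.363 and 0.313 CPM (wild type) against 122 and 0.454 CPM (knockout), so it was high in knockout 1 alone. Lgr5 overlapped between the genotypes. Aqp5 was at 2.78 and 1.93 CPM (wild type) against 24.5 and 58.4 CPM (knockout). It is on the antral list and on that for mucous neck cells below, so it does not mark antral tissue by itself. The 6 genes of the antral list, which include the widely expressed Sst, added up to 93.0 and 224 CPM (wild type) against 237 and 198 CPM (knockout). In bulk tissue, a change in the number of cells of a type and a change in RNA per cell cannot be told apart.

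To show the genes themselves, the 250 bases before the RefSeq start (GRCm38.p6) are given for 3 members. Galnt7 and Galnt10 are the follow-up pair, and Galnt11 is the member with the smallest spread between all 4 libraries. Capitals mark each CG dinucleotide, the letters of a CpG, which reads the same on both strands. The windows lie at chr8:57653056-57653305 (minus strand), chr11:57645192-57645441 (plus strand) and chr5:25222622-25222871 (plus strand).
Galnt7: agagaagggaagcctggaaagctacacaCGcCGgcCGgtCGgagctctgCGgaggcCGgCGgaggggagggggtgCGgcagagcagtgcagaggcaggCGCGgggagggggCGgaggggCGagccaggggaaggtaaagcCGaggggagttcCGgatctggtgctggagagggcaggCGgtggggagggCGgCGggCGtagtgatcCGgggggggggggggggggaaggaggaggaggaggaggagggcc
Galnt10: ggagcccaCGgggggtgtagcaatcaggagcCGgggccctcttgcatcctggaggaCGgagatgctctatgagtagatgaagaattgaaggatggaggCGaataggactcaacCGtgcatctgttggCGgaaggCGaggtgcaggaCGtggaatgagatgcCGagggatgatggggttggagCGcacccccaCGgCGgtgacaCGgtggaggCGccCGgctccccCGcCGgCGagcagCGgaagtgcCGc
Galnt11: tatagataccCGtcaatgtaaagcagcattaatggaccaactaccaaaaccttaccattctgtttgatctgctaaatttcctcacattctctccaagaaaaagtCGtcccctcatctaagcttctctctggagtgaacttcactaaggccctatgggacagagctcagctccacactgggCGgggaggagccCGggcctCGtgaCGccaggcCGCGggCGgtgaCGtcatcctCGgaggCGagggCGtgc
These windows held 19, 20 and 13 CG in that order, against a median of 6 over the 32851 windows of the RefSeq table. At least as many CG as in the Galnt10 window were found in 17.9% of all windows. In total 6 members had 8 windows. The window of Galnt3 had 34 CG, and those at the 2 starts of Galnt6 had 10 and 22. The window of a second RefSeq start of Galnt11, at chr5:25246123-25246372, had 4, below the median. The Galnt5 window, with 3, lies inside the first exon of the gene in GENCODE and so does not show sequence before that start. The limit holds for other windows too. Both Galnt11 windows lie inside the GENCODE span of the gene, which starts at 25221904, as does 1 window of Galnt6 inside its own gene. Most of the Galnt3 window lies inside a gene span that ends at 66124994. The letters GGGCGG were searched on both strands and found in 32.7% of all windows. They occurred 2 times in each of the printed windows of Galnt7 and Galnt11. In the window of Galnt3 and in that of 1 start of Galnt6 they occurred 3 times each. They were not in the windows of Galnt10, Galnt5, the other start of Galnt6 or the second start of Galnt11.

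In the wild-type corpus the family was led by Galnt4 and Galnt7. To compare genes, CPM was divided by the merged exon length in kilobases (kb). On that scale Galnt4 was at 54.2 and 40.9 and Galnt7 at 50.5 and 40.6 CPM per kb in wild type 1 and 2, and the pair overlapped. Below them came Galnt6, Galnt12 and Galnt2, with means of 31.3, 28.8 and 28.6 CPM per kb, which overlapped each other as well. The place of Galnt2 is uncertain, because 90.0% of its exon bases are shared with Gm20388, another gene model on the same strand. Galnt3 at 20.3 and Galnt1 at 13.1 CPM per kb each stood apart from their neighbours in both wild-type libraries. Galnt11, Galnt10 and Galnt5 closed the order at 3.75, 2.98 and 1.72 CPM per kb, without overlap between them.

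In knockout mucosa the transcript levels of 8 of the 10 members were higher in the fit across all genes and those of 2 were lower, where 49.9% of the 14067 genes tested were higher. The median log2 fold change of the members was 0.59, against -0.002 over all genes tested. The largest differences were those of Galnt5 (3.67-fold), Galnt10 (2.67-fold) and Galnt1 (1.96-fold), while Galnt2, Galnt4 and Galnt11 were within 1 standard error of no difference. By edgeR's quasi-likelihood test with Benjamini-Hochberg adjustment over all genes, 0 of the 10 members passed 0.05, and neither did any other gene (percent called 0 in each direction). At an unadjusted p under 0.05 there were 4 members, all higher (Galnt5, Galnt10, Galnt1 and Galnt12), where 9.22% of all genes were higher and 6.68% lower at that level. DESeq2 called 3 members higher (Galnt5, Galnt10 and Galnt1) and 0 lower, where it called 3.90% of genes higher and 2.78% lower. In 6 members both knockout libraries lay above both wild-type libraries, as they did in 26.3% of all genes tested. Galnt11 was the 1 member with both below, as in 23.8% of all genes. For 1 gene alone, exact permutation of 2 against 2 libraries gives a two-sided p of 0.33 at the lowest.

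**Figure D1:**
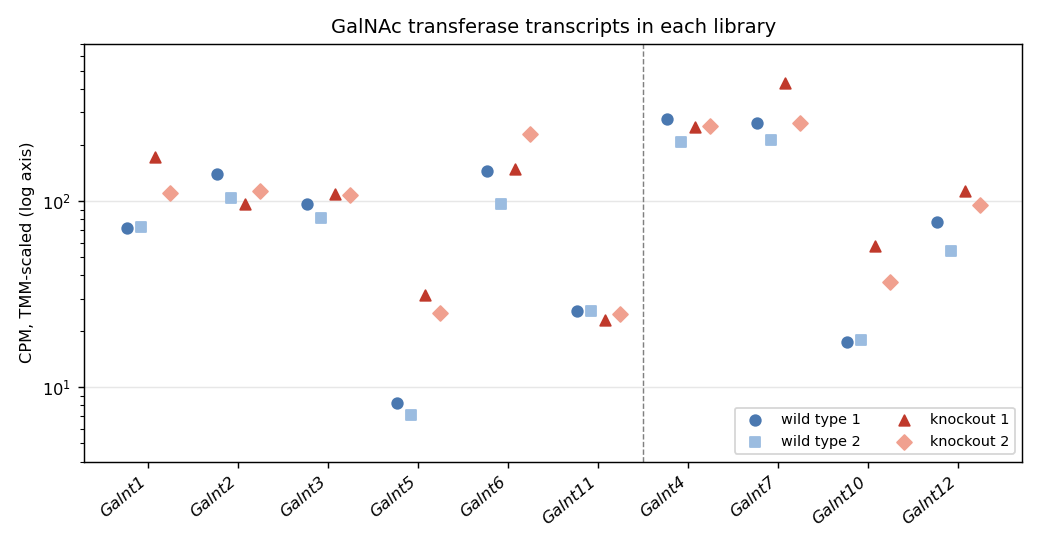
CPM of each member (log axis) in wild type 1 and 2 (blue) and knockout 1 and 2 (red), 1 point per library, with the members that act on bare peptide left of the dashed line and the branch with the follow-up enzymes right of it. Galnt5, Galnt10 and Galnt1 sit clearly higher in both knockout libraries, while the points of Galnt2, Galnt4 and Galnt7 overlap.

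Among the enzymes that act on bare peptide, Galnt5 differed most. Galnt5 has a long stem between its membrane anchor and catalytic domain and is expressed in few tissues. The gene (ENSMUSG00000026828.11) lies on the plus strand of chromosome 2 at 57997884 to 58045860 (mm10). Its level was 8.23 and 7.14 CPM for wild type 1 and 2 and 31.2 and 25.2 CPM in knockout 1 and 2, from 204, 137, 697 and 611 counts. Every knockout value was above every wild-type value, and the libraries of a genotype were close to each other. It had a log2 fold change of 1.88 ± 0.189 (n = 2 per group, SE), at an adjusted p of 0.178 by edgeR and 8.7e-07 by DESeq2. The summed counts, scaled by library size, were 3.63 times those of wild type, with a 95% Clopper-Pearson interval of 3.22 to 4.1 that covers counting error only. By unadjusted p the gene ranked 34 of 14067. Its annotated exons overlap those of Ermn on the other strand, which had 8 counts or fewer in each library. Galnt5 remained among the lowest of the family per kb in knockout, at a mean of 6.33 CPM per kb.

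Galnt1, among the most widely expressed isoenzymes, was at 71.8 and 73.1 CPM (wild type) against 172 and 111 CPM (knockout). The wild-type libraries were nearly equal, and knockout 1 was the higher of the knockout libraries. It had a log2 fold change of 0.97 ± 0.259 (n = 2 per group, SE), at an adjusted p of 0.248 by edgeR and 0.0485 by DESeq2. Galnt1 (ENSMUSG00000000420.15) lies on the plus strand of chromosome 18 at 24205344 to 24286818.

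Galnt3 and Galnt6 form 1 subfamily. Galnt3 is known for glycosylating the phosphate hormone Fgf23, and Galnt6 for acting on fibronectin. Galnt3 was at 96.7 and 80.9 CPM (wild type) against 110 and 108 CPM (knockout). The groups did not overlap, but the log2 fold change of 0.30 ± 0.162 was small (edgeR adjusted p = 0.459, DESeq2 0.664, n = 2 per group). Galnt6 was at 146 and 96.5 CPM (wild type) against 149 and 230 CPM (knockout). Its lower knockout value was nearly equal to the higher wild-type value, and knockout 2, not knockout 1, was the library that stood above the rest. Galnt6 had a log2 fold change of 0.65 ± 0.339 (edgeR adjusted p = 0.445, DESeq2 0.405, n = 2 per group). It was 0.89 without knockout 1 and 0.25 without knockout 2. An antisense gene, Galnt6os, overlaps 11.4% of the exon bases of Galnt6 and was not analysed here.

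The remaining 2 enzymes of the peptide-acting group showed no increase. Galnt2, a broadly expressed enzyme with known lipoprotein-related substrates, was at 140 and 104 CPM (wild type) against 96.4 and 114 CPM (knockout), with overlap between the groups (log2 fold change -0.21 ± 0.22, SE, edgeR adjusted p = 0.702, n = 2 per group). Of its exon bases 90.0% are shared with Gm20388, a longer gene model on the same strand, so the division of reads between them is uncertain. Gm20388 was at 65.5, 57.5, 84.8 and 64.1 CPM, and the sum of both at 206 and 162 CPM (wild type) against 181 and 179 CPM (knockout), which also overlapped. Galnt11, known for O-glycans on Notch1, was at 25.6 and 25.7 CPM (wild type) against 22.9 and 24.9 CPM (knockout). Both knockout values were lower, by little (log2 fold change -0.11 ± 0.126, SE, edgeR adjusted p = 0.751, n = 2 per group), and the interval of the scaled count ratio, 0.856 to 1.01, included 1.

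In the branch with the follow-up enzymes the members ran from 1.05-fold for Galnt4 to 2.67-fold for Galnt10. Galnt10, which adds GalNAc beside residues already glycosylated, was at 17.5 and 18.0 CPM (wild type) against 57.8 and 37.0 CPM (knockout). Both knockout libraries stood well above the wild-type pair, with knockout 1 the higher. It had a log2 fold change of 1.42 ± 0.259 (n = 2 per group, SE), at an adjusted p of 0.21 by edgeR and 0.00291 by DESeq2. The scaled ratio of summed counts was 2.65 (95% interval 2.44 to 2.88, counting error only). Galnt10 (ENSMUSG00000020520.14) lies on the plus strand of chromosome 11 at 57645442 to 57787514.

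Galnt7, the other follow-up enzyme of this pair, was among the most abundant members. It was at 265 and 213 CPM (wild type) against 431 and 262 CPM (knockout). Knockout 1 alone was high, and knockout 2 lay within the wild-type range. The log2 fold change of 0.53 ± 0.323 (SE, edgeR adjusted p = 0.498, DESeq2 0.538, n = 2 per group) was 0.09 without knockout 1 and 0.80 without knockout 2. Galnt12, an enzyme prominent in the digestive tract, was at 77.8 and 54.1 CPM (wild type) against 113 and 95.4 CPM (knockout). Its groups did not overlap, and the distance between them was smaller than the gap between the wild-type libraries (log2 fold change 0.66 ± 0.239, SE, edgeR adjusted p = 0.314, DESeq2 0.241, n = 2 per group). Galnt4, which acts on the selectin ligand PSGL-1, was at 276 and 208 CPM (wild type) against 251 and 255 CPM (knockout), with both knockout values inside the wild-type range (log2 fold change 0.06 ± 0.219, SE, edgeR adjusted p = 0.924, n = 2 per group). Galnt4 is a gene of 1 exon inside the span of Poc1b, with 8.25% of its exon bases shared. Poc1b was at 27.6, 21.0, 30.2 and 23.1 CPM and followed neither genotype.

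**Figure D2:**
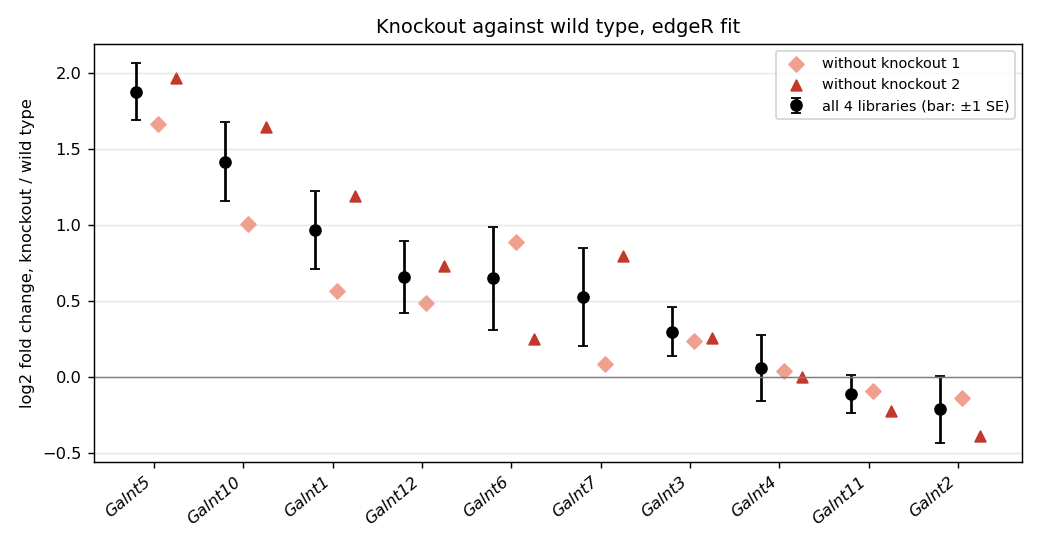
Log2 fold change of each member, knockout over wild type, from the edgeR fit with all 4 libraries (black, bars of 1 SE) and without knockout 1 or without knockout 2 (no bars). Galnt5, Galnt10 and Galnt1 stay above 0.5 in all 3 fits, and Galnt7 falls from 0.80 to 0.09 with the choice of knockout library.

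The knockout libraries differed from each other in several members. Against the wild-type mean of log2 CPM, Galnt5 was 2.03 higher in knockout 1 and 1.72 in knockout 2, Galnt10 was 1.70 and 1.06 higher, and Galnt1 was 1.25 and 0.62 higher. All 3 were thus higher in both libraries and more so in knockout 1. Galnt7, Galnt10 and Galnt1 were 0.72, 0.64 and 0.62 log2 units higher in knockout 1 than in knockout 2, and Galnt6 was 0.63 units lower there. The median over the members was 0.57 in knockout 1 and 0.43 in knockout 2. Without knockout 1, the library with the most Gast and Pdx1, the log2 fold changes by edgeR were 1.67 for Galnt5, 1.01 for Galnt10 and 0.57 for Galnt1, and the median of the members was 0.36. Adjusted p-values of that fit were 0.146, 0.164 and 0.247. Without knockout 2 edgeR called these 3 members higher (adjusted p = 0.0223, 0.0201 and 0.0346) and called 2.39% of all genes higher and 3.41% lower. Over all settings tried the adjusted p ran from 8.7e-07 to 0.738 for Galnt5, from 0.00291 to 0.738 for Galnt10 and from 0.0346 to 0.738 for Galnt1.

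**Figure D3:**
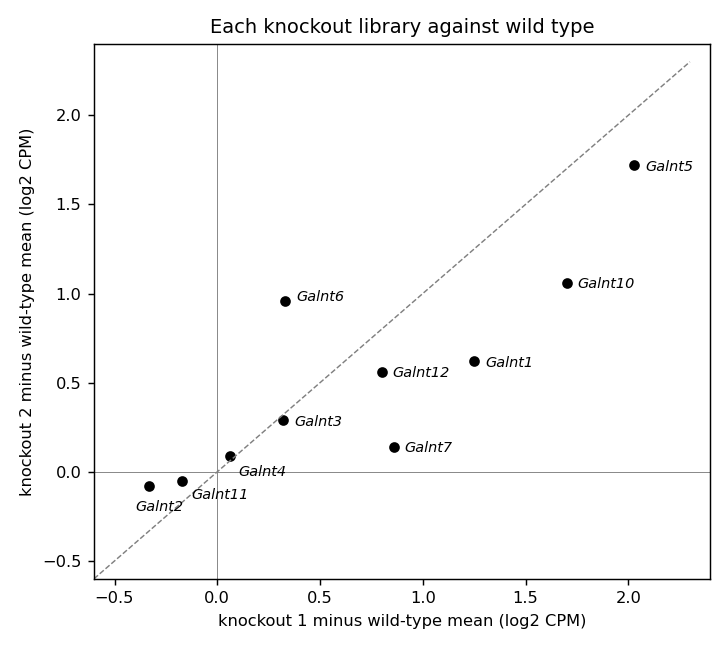
Difference of each member from the wild-type mean in log2 CPM, knockout 1 on the horizontal and knockout 2 on the vertical axis, with equal values on the dashed line. Galnt5, Galnt10, Galnt1, Galnt7 and Galnt12 lie below the line. Galnt6, at 0.33 and 0.96, and Galnt2, at -0.33 and -0.08, lie above it, and Galnt3, Galnt4 and Galnt11 lie near it.

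Markers of other cell types moved with genotype too, and their part in these values was not tested. The parietal list, with 13 of 14 genes tested and all 13 lower in the fit, added up to 17290 and 16812 CPM (wild type) against 866 and 5561 CPM (knockout). The counterpart was a list for mucous neck cells and SPEM (spasmolytic polypeptide-expressing metaplasia, mucous glands that follow a loss of parietal cells). Of 10 tested 8 were higher, and the list added up to 4389 and 3338 CPM (wild type) against 17589 and 11891 CPM (knockout). Cftr, among the 8, had 8 and 5 wild-type counts and passed the count filter only with the knockout libraries. Squamous forestomach genes added up to 1.21 and 0.938 CPM against 201 and 14.3 CPM, with Trp63 at 0 in every library. Of the 12 listed, 5 were tested, and these would not have passed the count filter on the wild-type libraries alone. Krt14, Krt4 and Krt6a, for example, had 0 counts in both. That all 5 were higher is therefore no result of its own. The intestinal list, with 8 of 10 tested and all 8 higher, added up to 567 and 313 CPM against 2595 and 702 CPM. Of these 8, Muc2 (21 and 8 wild-type counts) and Cdh17 (31 and 1) would not have passed that filter on the wild-type libraries alone. That all 8 were higher is thus no result of its own either. The chief cell list, with 6 of 7 tested genes lower, added up to 77199 and 180876 CPM against 2404 and 94666 CPM and so was low in knockout 1 above all. Surface pit genes, with 7 of 9 tested lower, added up to 127327 and 84873 CPM against 76690 and 57687 CPM. Mitochondrial transcripts, all 13 lower, took 10.6% and 9.51% of the scaled wild-type counts against 5.44% and 4.85% of those of the knockout.

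Some cell types varied along the sample number rather than the genotype. Smooth muscle and fibroblast genes added up to 329 and 2239 CPM for wild type 1 and 2 and to 403 and 2091 CPM in knockout 1 and 2, and leucocyte genes to 5.65, 23.7, 8.43 and 14.6 CPM. In wild type, 7 of the 10 members were higher in library 1 than in library 2, most of all Galnt6 (0.60 log2 units), Galnt12 (0.52), Galnt2 (0.43) and Galnt4 (0.41). Galnt1, Galnt10 and Galnt11 were within 0.04 units of equal there.

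As a sum, the 10 members reached 253 and 195 CPM per kb in wild type and 318 and 288 CPM per kb in knockout, without overlap. The summed CPM of the mucins Muc1, Muc5ac and Muc6, which the family glycosylates, was 13620 and 8235 (wild type) against 6578 and 5452 (knockout). That sum was not divided by length, was mostly Muc5ac and includes the targeted Muc6, while Muc1 overlapped between the genotypes. With all 12 listed mucins in the table, Muc4 among them, it was 13643 and 8239 against 6972 and 5515 CPM. The branch with the follow-up enzymes made up 56.0% and 55.6% of the family's summed CPM per kb (wild type) against 59.9% and 51.3% (knockout), so the balance between the 2 groups of isoenzymes overlapped.

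The composition of the family, which does not depend on library size, differed more between members than its balance did. Galnt4 made up 21.2% ± 0.32 of the summed CPM per kb in wild type (mean and SD, n = 2) and 16.4% ± 1.36 in knockout, and Galnt2 12.7% ± 0.30 against 8.17% ± 1.55. In share, both were lower in each knockout library than in either wild-type library, although their CPM overlapped. The share of Galnt2, and through it those of the other members, depends on how reads were divided between it and Gm20388. So were Galnt11 (1.48% and 1.93% against 1.05% and 1.26%) and Galnt3 (8.75% and 9.51% against 7.92% and 8.57%). Galnt3 was higher in CPM in both knockout libraries. As the shares add up to the whole, a share can fall without a fall in level. Galnt5 went from 0.776% ± 0.0654 to 2.08% ± 0.17 and Galnt10 from 1.36% ± 0.277 to 2.60% ± 0.634. These 2 members remained small parts of the whole. Galnt1 and Galnt12 had higher shares in both knockout libraries as well. Galnt6 made up 14.9% and 12.8% of the wild-type libraries against 12.1% and 20.6% of the knockout libraries, and Galnt7 20.4% ± 0.629 in wild type against 25.8% and 17.3% in the knockout libraries. By merged exon length Galnt7 was first in knockout 1 and Galnt6 in knockout 2. By the longest transcript in its place Galnt7 was first in both, and in knockout 2 the pair was nearly equal (60.7 CPM per kb for Galnt7 and 60.6 for Galnt6).

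**Figure D4:**
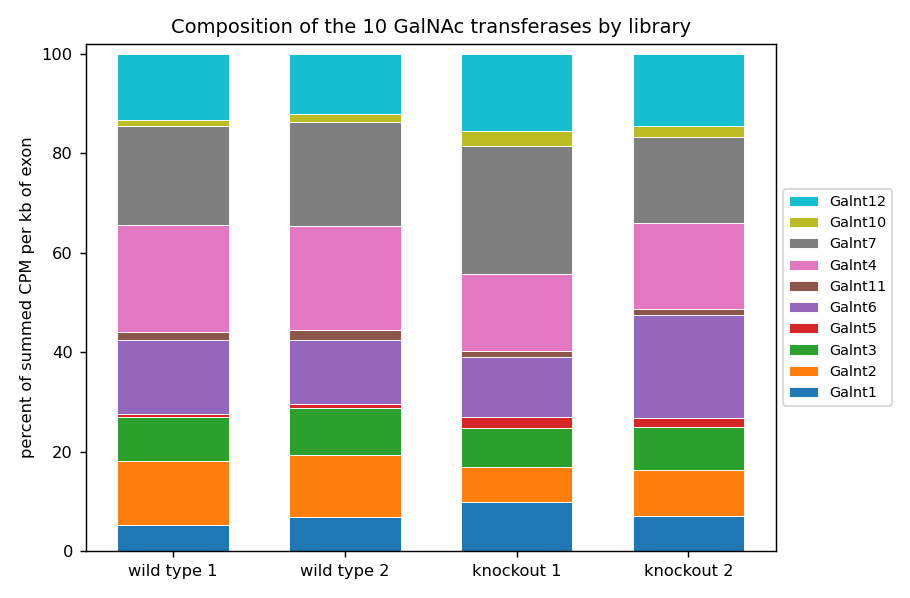
Share of each member in the summed CPM per kb of exon of the 10 members, 1 bar per library, each adding up to the whole. Galnt2, Galnt3, Galnt4 and Galnt11 take smaller shares in both knockout libraries. By merged exon length the widest segment is Galnt4 in wild type, Galnt7 in knockout 1 and Galnt6 in knockout 2.

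In knockout the order of levels per kb was Galnt7 (mean of 66.0 CPM per kb), Galnt4 (49.7), Galnt6 (49.0), Galnt12 (45.5), Galnt1 (25.7), Galnt3 (24.9), Galnt2 (24.6), Galnt10 (7.95), Galnt5 (6.33) and Galnt11 (3.48). Each of the first 4 overlapped its neighbour, as did Galnt1, Galnt3 and Galnt2 among themselves and Galnt10 with Galnt5. Galnt11, which ranked above Galnt10 and Galnt5 in wild type, was below both in knockout, without overlap. By the longest transcript it stayed below Galnt10 but overlapped Galnt5 (5.7 and 6.2 against 7.4 and 5.97 CPM per kb).

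Of the 9 other genes of the family looked for in the table, all but Galntl6 were low. Galntl6 was at 23.5 and 24.5 CPM (wild type) against 17.8 and 14.8 CPM (knockout). In CPM not divided by length, it was thus close in wild type to Galnt11 (25.6 and 25.7 CPM) and above Galnt10 and Galnt5. Its log2 fold change was -0.56 ± 0.158 (SE, edgeR adjusted p = 0.255, n = 2 per group). Galntl6 was lower in both knockout libraries while most members were higher. Of the 5 other family genes tested, 1 was higher and 4 were lower in the fit (median log2 fold change -0.56). Among these 5 only Galntl6 did not overlap between the genotypes. Galnt15 was at 0.605, 8.91, 0.269 and 2.52 CPM, Galnt17 at 0.202, 1.30, 0.0448 and 0.578 CPM and Galnt16 at 0.202, 1.04, 0.448 and 1.65 CPM for wild type 1 and 2 and knockout 1 and 2. All 3 were higher in library 2 of each genotype, as were the smooth muscle and fibroblast genes. Galnt18 had 20 to 57 counts per library, Galnt9, Galnt13 and Galnt14 had 10 or fewer, and Galntl5 was at 0 in all 4.

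A list of 14 genes of hexosamine and nucleotide sugar synthesis and transport was wider than the supply of the donor UDP-GalNAc alone. Of its 13 tested genes, 9 were higher and 4 lower (median log2 fold change 0.39). By edgeR 0 of them passed and by DESeq2 1 did, Gfpt1, the rate-limiting enzyme of hexosamine synthesis. Gfpt1 was at 315 and 257 CPM (wild type) against 527 and 558 CPM (knockout) (log2 fold change 0.92 ± 0.214, n = 2 per group, SE, adjusted p of 0.229 by edgeR and 0.00166 by DESeq2). Of the other examples fixed for this list, Pgm3 had a log2 fold change of 0.54 ± 0.215 (edgeR adjusted p = 0.344). Uap1, which makes UDP-N-acetylhexosamines, ran the other way, with 156 and 128 CPM in wild type and with 89.5 and 120 CPM in knockout (edgeR adjusted p = 0.436). Galk2, a GalNAc kinase, was at 42.9 and 33.0 CPM against 38.4 and 39.1 CPM, with overlap.

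The enzymes that act next on the GalNAc were evenly divided, with 5 of 10 tested genes higher and 5 lower (13 listed, median -0.02). None passed by edgeR, and St3gal1 was the 1 gene called by DESeq2, lower in knockout (23.5 and 25.8 CPM against 4.30 and 11.6 CPM, adjusted p = 0.0439). C1galt1, which adds galactose to make core 1, was at 346 and 267 CPM (wild type) against 301 and 268 CPM (knockout), and its chaperone gene C1galt1c1 at 49.5 and 39.3 CPM against 40.5 and 42.5 CPM. Both overlapped between the genotypes. Of the core 2 enzymes, Gcnt1 had a log2 fold change of 0.50 ± 0.243 and Gcnt3 had 522 and 373 CPM against 730 and 380 CPM. B3gnt6, for core 3, had 4 counts or fewer in each library, and St6galnac1, which caps the GalNAc with sialic acid, had 1 count in all.

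Of the 13 mucins listed, 8 were tested, with 5 higher and 3 lower (median 1.27), and none passed by edgeR. Among the higher ones, Muc2 (21 and 8 wild-type counts), Muc3a (4 and 5) and Muc13 (203 and 9) passed the count filter only with the knockout libraries. That split and that median are therefore no result of their own. DESeq2 called Muc6 lower and Muc4 higher. Muc5ac, the surface mucin, was at 12431 and 7345 CPM (wild type) against 5778 and 4872 CPM (knockout), and Muc1, a membrane mucin, at 845 and 577 CPM against 800 and 580 CPM. Muc13, a further membrane mucin, was at 8.19 and 0.469 CPM against 45.3 and 15.4 CPM.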

How the data were processed

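RNA of the corpus mucosa was made into stranded poly(A) libraries, per the labels' protocols. Per the submitters' processing notes the build was mm10; the sources used here do not give aligner, counter, annotation or use of strand. The authors deposited estimated counts per gene, not normalized as far as the values show; 35.0% of nonzero values were not whole, and these expected counts were rounded. Such estimates divide reads between overlapping genes. Symbols, positions and exon lengths are from GENCODE M21 (34652 of 34866 rows matched by identifier), promoters from RefSeq (GRCm38.p6).

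Knockout was compared with wild type by edgeR 4.0.16 in R 4.3.3 (TMM factors, filterByExpr at a minimum count of 10, robust quasi-likelihood test, no covariate) on 14067 genes, adjusted over all of them by Benjamini-Hochberg at 0.05. The standard error is the log2 fold change divided by the root of the F statistic. CPM uses TMM-scaled library sizes. Alternatives were DESeq2 1.42.0, limma 3.58.1 (voom), other scalings and filters, a fit with the sample number as block, and fits without each library. The fit was tested on simulated data, where it missed many of the changed genes at 2 libraries per group and made more false calls than the nominal share, so a member that did not pass is not shown to be equal. Libraries of a genotype were not duplicates (chi-square per degree of freedom of 139 and 272). All members were named with their values, and pathway genes by fixed examples and by DESeq2 calls; some of these genes are not reported here. Members and lists were chosen with earlier results of these data known. The other family genes and marker lists were given whole or as sums, except genes named for a limit. The order of members within the text and the 3 promoters printed were chosen after the values were seen.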

Additional observations from a re-analysis of the deposited data

How the results depend on the processing

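Each genotype had 2 libraries. Direction and side of the threshold of the members' log2 fold changes were kept in 122 of 130 combinations of member and alternative. In most alternatives no gene at all passed, so the side of the threshold there tells nothing about the members. The direction turned in 2 of the 130, given below. Leaving out a library leaves 1 in its group, which is then assumed to vary like the other group. DESeq2 called 554 genes higher and 395 lower and 3 members higher. Without a filter on low counts edgeR called 5 higher and 4 lower, and no member. Leaving out 1 library gave 0 to 350 genes higher, 0 to 501 lower, 0 to 3 members higher and a median of the members of 0.36 to 0.83; the 3 members came without knockout 2, and the lowest median without knockout 1 (0.37 without wild type 2). The direction turned for Galnt2 without wild type 1 (0.02, with a range of -0.42 to 0.02 over the libraries left out) and for Galnt4 without wild type 2 (-0.13, with a range of -0.13 to 0.29). The number of members higher in the fit, an alternative added after seeing the data, was 7 to 9 when 1 library was left out and 8 otherwise. Dividing by the longest transcript in place of merged exons put the wild-type shares at 7.29% for Galnt1, 12.1% for Galnt2, 19.3% for Galnt4, 22.6% for Galnt7, 2.64% for Galnt11 and 11.6% for Galnt12, and the knockout shares at 14.8% for Galnt4, 1.78% for Galnt11 and 13.5% for Galnt12, so Galnt7 led in all 4 libraries on that scale. The difference follows from the lengths alone.

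The labels do not say that equal sample numbers mark a pair. Deviations of the libraries numbered 1 correlated at 0.517 across 14067 genes, which are not independent. With the number as a replicate block edgeR called 0 genes and 0 members, and the log2 fold changes were 1.87 for Galnt5, 1.38 for Galnt10 and 0.93 for Galnt1.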

Other observations

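Protein substrates known for single isoenzymes were measured as a list of 10 genes, of which 6 were tested, 3 higher and 3 lower in knockout (median log2 fold change 0.26), and 0 passed by edgeR's quasi-likelihood test. Receptors among them went both ways. Lrp8 was at 1.37 and 1.35 CPM (wild type) against 8.11 and 5.95 CPM (knockout) (log2 fold change 2.36 ± 0.367, n = 2 per group, SE, adjusted p of 0.209 by edgeR and 0.000333 by DESeq2). Vldlr had 54.7 and 46.4 CPM against 22.8 and 25.2 CPM (-1.07 ± 0.152, adjusted p of 0.206 by edgeR and 0.000726 by DESeq2, n = 2 per group). The groups did not overlap in either gene. Lrp1 had 191 and 140 CPM against 295 and 217 CPM, with knockout 1 the highest. Notch1, a substrate of Galnt11, had 32.2 and 26.6 CPM against 27.1 and 27.3 CPM, with overlap. The lipoprotein gene Apoc3 and the hormone gene Fgf23 had 8 counts or fewer in each library, and Pltp was at 0.767, 8.54, 0.493 and 2.81 CPM for wild type 1 and 2 and knockout 1 and 2.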
